A study of Homo sapiens with 12 samples.

Results

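The genes described here are 302 antisense RNA genes, those whose symbol ends in -AS followed by a number. They were chosen by symbol and level from 25369 rows of a table of normalized counts, which are read counts scaled between libraries. The table held 719 such rows. Of these, 416 did not reach a normalized count of 10 in at least 3 of the 12 libraries, among them 140 that were at 0 in every library, and 1 (EPB41L4A-AS1) was left out by name. At the edge of the rule, the third highest value was 10 for 7 genes inside it, such as LEF1-AS1 and MEF2C-AS1, and 9 for genes just outside it, such as ITGA9-AS1 and PARD6G-AS1. All 302 were tested, since the same level was required of every gene tested. Of the 302, 248 reached 10 in at least 1 library of each of the 4 groups, and 1 (HLX-AS1) did so in the TNIP2 Pulldown libraries alone.

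The libraries came from HEK293T cells, a transfectable line from human embryonic kidney, which the growth conditions call HEK293. The Control groups were transfected with a plasmid for the Halo tag, a protein tag that binds its resin covalently, and the TNIP2 groups with one for a fusion of the tag and TNIP2 residues 196 to 346. TNIP2 is an adaptor protein that binds ubiquitin chains and acts in NF-kB signalling. Input is RNA of the whole cell extract and Pulldown is RNA recovered with the tag, both after removal of ribosomal RNA. Each of the 4 groups (Control Input, Control Pulldown, TNIP2 Input, TNIP2 Pulldown) had 3 libraries. Both constructs were expressed from plasmids, no untransfected cells were analysed here, and the labels do not say whether libraries came from separate transfections. The p-values therefore rest on the spread among libraries, and that spread may be technical. One letter in the column names matches no label and was assigned to the TNIP2 construct by elimination.

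An antisense RNA is transcribed from the strand opposite to another gene, its sense partner, and is named after it. Some pairs overlap, head to head or tail to tail, and others start apart from a shared promoter region and run in opposite directions without overlap. A few antisense RNAs are known to silence or activate the partner in cis, while the role of most is unknown. The strand setting of the read counting is not given in the sources used here. Where a pair overlaps, reads of the antisense gene and of its partner therefore cannot be told apart, and every value below is a value of the row that carries the name.

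Library depth is given here as reads recovered from the deposited values and summed over genes, not as the number sequenced. It ran from 13787717 to 20782078 reads for Control Input and 3590456 to 6402925 for Control Pulldown. For TNIP2 Input it was 8895319 to 16752025 and for TNIP2 Pulldown 10309277 to 29515346. Low genes were thus measured least precisely in Control Pulldown. The normalized count of TNIP2 itself was 272 to 304 in Control Input and 13318 to 46568 in TNIP2 Input. In Control Pulldown it was 1472, 309 and 391, with the highest value in library 1, which was also the shallowest of the 12. Of 7 genes listed for HEK293 cells, 6 (KRT8, KRT18, VIM, NEFL, NEFM, LIN28B) were at 71 or more in every library, while PAX2 was at 2 to 22. Markers of blood, endothelium and liver ran from 0 to 82, with PTPRC, HBB, CD3E and CDH5 at 0 or 1. The libraries of TNIP2 Input and TNIP2 Pulldown numbered 3 stood apart from the others on the second principal component (54.7 and 47.8, against -25.7 to 2.84 for the other 10), and counts without both are given below.

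Of the 302 antisense genes, 291 had a row for the sense partner, 272 had a partner that was tested, 19 a partner under the level rule, and 11 had none, such as the HOXB and HOXA antisense genes, whose prefix names a cluster. Of the 272, 2 shared a partner, which left 271 partners. RefSeq (GRCh38.p14) held all 302, 227 under the same symbol and 75 under a newer one. It lists 288 as long non-coding RNA, 7 as protein coding, 5 as transcribed pseudogenes and 2 as antisense RNA. The protein-coding entries include TOPORS-AS1, now SMIM27, and HNRNPU-AS1, which RefSeq merges into HNRNPU. Another 50 have since been renamed with the ending -DT, for divergent transcript, among them PAXIP1-AS1 and USP27X-AS1.

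RefSeq gave the arrangement of 213 pairs, of which 76 were divergent without overlap, 63 overlapped at their 5′ ends and 36 at their 3′ ends. In 60 of the divergent pairs the starts lay at most 250 bases apart, so that a single short stretch separates the antisense from the sense RNA. The stretches of 4 divergent pairs are printed because both genes of each changed in the TNIP2 Pulldown, in opposite directions (UBAC2, TMEM161B) or in the same direction (USP27X, PRKAR2A). The pairs were chosen after their values were seen. Each is read 5′ to 3′ on the antisense gene's strand from RefSeq, GRCh38.p14. Capitals mark matches on either strand to the CCAAT box (searched as the letters CCAAT) or the GC box (searched as the letters GGGCGG). They also mark a long form of the ETS factor site (searched as the letters CCGGAAG) and the TATA box (searched as the letters TATAAA). Shorter ETS matches were not searched. None of these sets of letters contains another. The stretch of UBAC2-AS1 is at chr13:99200758-99200853 (minus strand), that of TMEM161B-AS1 at chr5:88268846-88269015 (plus), USP27X-AS1 at chrX:49879357-49879483 (minus) and PRKAR2A-AS1 at chr3:48847875-48847936 (plus).
UBAC2-AS1: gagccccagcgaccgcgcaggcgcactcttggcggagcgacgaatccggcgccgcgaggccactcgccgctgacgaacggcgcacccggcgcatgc
TMEM161B-AS1: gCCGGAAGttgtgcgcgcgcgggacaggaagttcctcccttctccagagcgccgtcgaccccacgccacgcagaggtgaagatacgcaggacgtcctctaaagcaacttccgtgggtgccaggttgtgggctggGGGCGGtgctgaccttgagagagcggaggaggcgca
USP27X-AS1: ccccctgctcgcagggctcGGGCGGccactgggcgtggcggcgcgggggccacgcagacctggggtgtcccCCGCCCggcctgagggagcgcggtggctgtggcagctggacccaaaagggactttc
PRKAR2A-AS1: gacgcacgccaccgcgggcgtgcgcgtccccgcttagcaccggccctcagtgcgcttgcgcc

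The stretch of TMEM161B-AS1 held 1 long ETS site near its start and 1 GC box, and that of USP27X-AS1 2 GC boxes. None of the 4 sets of letters occurred in the stretches of UBAC2-AS1 and PRKAR2A-AS1, which says only that these letters are not in these windows. In the 300-base window around the start (250 bases before to 50 after), 60.7% of the 239 antisense genes with a sequence held a GC box, as did 76.3% of the 76 divergent ones and 44.6% of all 27305 RefSeq promoters. TATAAA occurred in 5.44% of the antisense windows, 3.95% of the divergent ones and 12% of all, and the CCAAT box in 31.8%, 27.6% and 35.7%. The long ETS site was found in 16.3%, 19.7% and 10.7%. The median GC content was 65.7% in the antisense windows, 69.8% in the divergent ones and 58.3% in all, and a match to GC-rich letters is more frequent where GC content is high.

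The antisense genes were low in these cells. Their median level in Control Input was 1.80 FPKM (a level scaled by exonic length and depth, which allows genes to be compared), against 8.14 for their sense partners and 7.79 for all genes tested. The level of the antisense gene was above that of its partner in 49 of 272 pairs, and the median log2 ratio of antisense to sense level was -2.17. By mean normalized count over the 12 libraries, 137 antisense genes lay under 30, 91 from 30 to under 100 and 74 at 100 or more, of which 6 exceeded 1000. Their share of all normalized counts was 0.249 to 0.445% per library.

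LRRC75A-AS1 was the most abundant at 324 ± 13 FPKM in Control Input (SD, n = 3). RefSeq lists it as SNHG29, a host gene whose introns give rise to small nucleolar RNAs. THAP9-AS1 (62.8 ± 3.28 FPKM), FGD5-AS1 (60.1 ± 1.23 FPKM) and WAC-AS1 (44.1 ± 1.69 FPKM) were also above most genes. WAC-AS1 was above WAC (24.9 ± 2.21 FPKM), an adaptor of histone ubiquitination, and OIP5-AS1 (28.5 ± 3.0 FPKM), the conserved RNA also called cyrano, was close to OIP5 (21.2 ± 3.02 FPKM), a factor of centromere assembly.

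In the TNIP2 Pulldown, 54 antisense genes were higher and 81 lower than in TNIP2 Input (limma's test, adjusted p under 0.05 over all 14627 genes tested), with 167 not passing. That is 44.7% of the 302, against 58.1% of all genes tested (29.8% higher, 28.3% lower). The median log2 fold change was -0.25 for the antisense genes and 0.01 for all genes. Of the 271 sense partners, 101 were higher and 59 lower, with a median of 0.23. Fold changes are on the scale of log2(normalized count + 1), and those of low genes are understated by it. Leaving out both TNIP2 libraries numbered 3 gave 65 higher and 77 lower antisense genes, with 32.9% of all genes tested higher and 31% lower.

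Against Control Pulldown, which shares the TNIP2 Pulldown libraries with the first comparison, 50 antisense genes were higher and 97 lower, 48.7% of them against 59.4% of all genes tested (30.6% higher, 28.7% lower). The medians were -0.24 for the antisense genes and 0.03 for all genes. Of the sense partners, 115 were higher and 58 lower, with a median of 0.27. Without both TNIP2 libraries numbered 3, the antisense counts were 69 higher and 94 lower, with 35.2% of all genes tested higher and 32.8% lower.

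**Figure D1:**
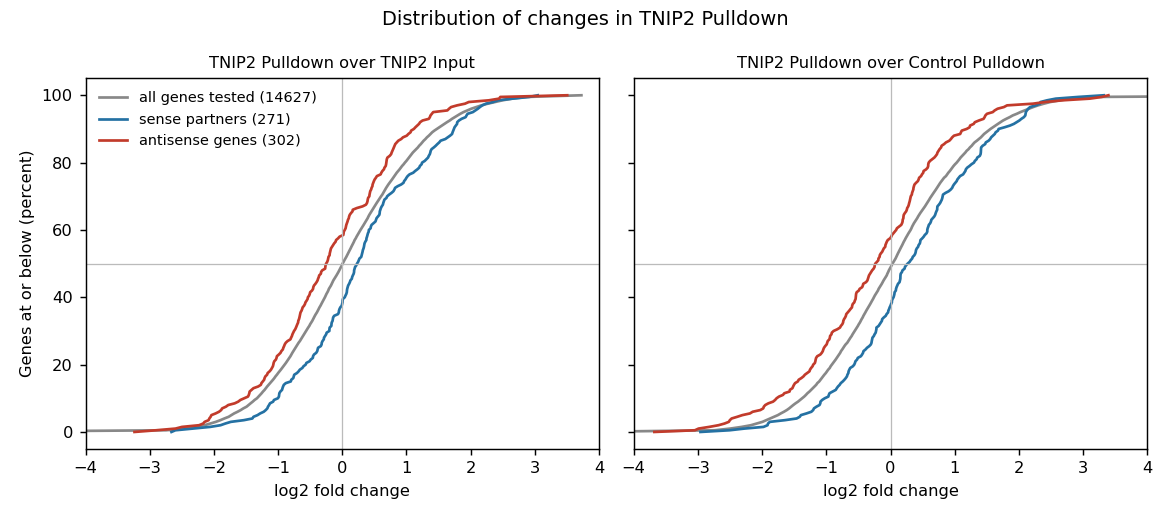
Cumulative percent of genes (vertical axis) at or below each log2 fold change (horizontal axis), for the 302 antisense genes, 271 sense partners and 14627 genes tested, in TNIP2 Pulldown over TNIP2 Input (left) and over Control Pulldown (right). The antisense curve crosses 50 percent left of 0, at -0.25 and -0.24, and the curve of sense partners right of it, at 0.23 and 0.27.

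The antisense median lay below that of the sense partners in each TNIP2 Pulldown library. Relative to the mean of Control Input, the median change of the 302 was -0.24, -0.13 and -0.50 (log2) in the 3 libraries, while that of the partners was 0.30, 0.24 and 0.24. In the other 9 libraries the antisense median lay between -0.22 and 0.09, with the lowest value in the TNIP2 Input library numbered 3. The -0.13 of TNIP2 Pulldown 2 lay within that range. The deposited values place the typical gene near 0 in every library (-0.02 to 0.02). With the libraries centred on cytosolic ribosomal protein genes instead, the median of all genes tested moved to -0.46 in TNIP2 Pulldown over TNIP2 Input, with 28.9% of all called genes higher against 51.3% as deposited, and the antisense genes split into 27 higher and 134 lower. Against Control Pulldown that centring moved the median of all genes to -0.30, with 35.7% of called genes higher against 51.6%, and the antisense genes split into 33 higher and 121 lower.

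The share of genes called differed with their level, and the antisense genes were mostly low. Among genes with a mean normalized count under 30, 32.1% of the antisense genes and 28.9% of all genes tested were called in TNIP2 Pulldown over TNIP2 Input. From 30 to under 100 the shares were 51.6% and 48.5%, and at 100 or more 59.5% and 66.0%. By direction, in the order of these 3 classes, 22.6%, 28.6% and 32.4% of the antisense genes were lower, against 16.5%, 23.7% and 31.7% of all genes. The shares of higher genes were 9.49%, 23.1% and 27%, against 12.3%, 24.8% and 34.3%. Against Control Pulldown the gap in the lowest class was wider, with 30.7% of antisense genes lower and 8.03% higher, against 17.6% and 17.2% of all genes. In the 2 higher classes the shares called there were 53.8% and 60.8% of antisense genes against 50.2% and 66.2% of all. Differences between these shares were not tested.

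**Figure D2:**
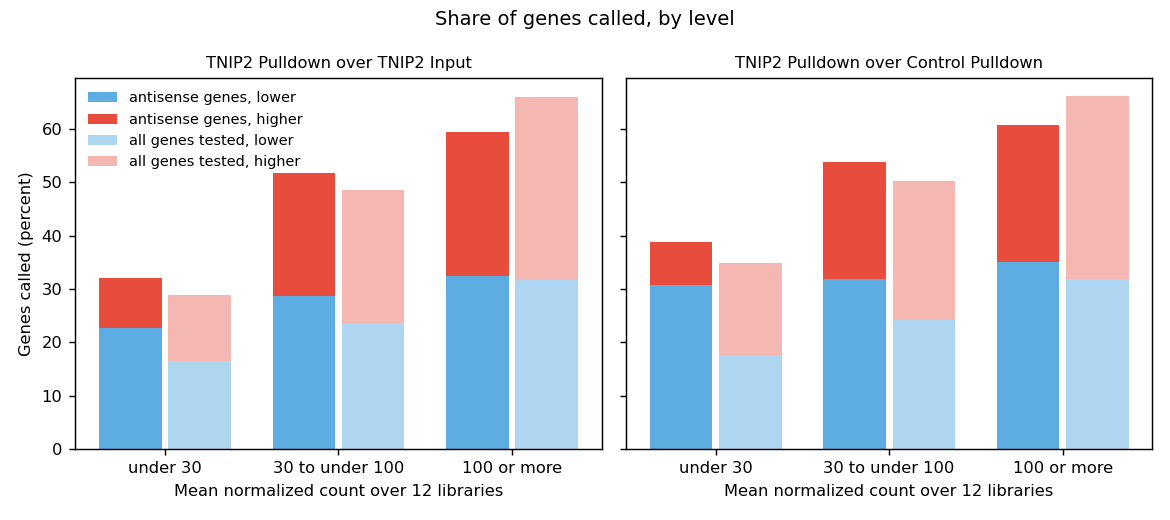
Percent of genes called (vertical axis, stacked as lower and higher) by mean normalized count over 12 libraries, for the antisense genes (dark bars) and all genes tested (light bars), in TNIP2 Pulldown over TNIP2 Input (left) and over Control Pulldown (right). Under 30, 44 of 137 antisense genes were called in the left panel, 31 of them lower.

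With the tag alone, no antisense gene was called. In Control Pulldown against Control Input, 0 of 302 antisense genes were called (0.137% of all genes tested), with 9 at an unadjusted p under 0.05, and voom on recovered reads called 0 as well. In TNIP2 Input against Control Input, 0 were called (0.00684% of all genes), with 2 at an unadjusted p under 0.05, and voom also called 0. The difference of enrichments is the Pulldown-over-Input change with the TNIP2 construct minus the same change with the tag. It was called above 0 for 30 antisense genes and below 0 for 52, or 27.2% against 42.8% of all genes tested (22.6% above, 20.2% below). Without TNIP2 Pulldown 3, 50 were called above 0, as were 26.2% of all genes tested.

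Among the antisense genes that fell, LRRC75A-AS1 had normalized counts of 8811, 9349 and 9525 for Control Input, 10253, 9993 and 9188 for Control Pulldown, 8819, 8251 and 7568 for TNIP2 Input, and 1386, 1471 and 1212 for TNIP2 Pulldown. The 3 TNIP2 Pulldown libraries lay far below all 9 others, without overlap. Of all genes tested, 57.5% had no overlap with TNIP2 Input, in either direction, and 61.0% had none with Control Pulldown. Separation from all 9 other libraries was not counted over all genes. The log2 fold change was -2.60 against TNIP2 Input (SE 0.13, limma adjusted p = 7.8e-09) and -2.86 against Control Pulldown (SE 0.13, adjusted p = 3.4e-09). The LRRC75A row was itself low, at 38, 26 and 28 in TNIP2 Input, against 16, 11 and 11 for TNIP2 Pulldown, and fell by 1.21 on the log2 scale (SE 0.30, adjusted p = 0.0028).

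RPARP-AS1, which RefSeq lists as C10orf95-AS1, stood at 719, 695 and 508 in TNIP2 Input, 739, 804 and 907 in Control Pulldown and 192, 121 and 121 in TNIP2 Pulldown. Its change was -2.16 against TNIP2 Input (log2, SE 0.20, adjusted p = 4.3e-07). PAN3-AS1 overlaps the start of PAN3, a subunit of a poly(A)-shortening enzyme. It was at 53, 53 and 69 in TNIP2 Input, against 10, 5 and 10 for TNIP2 Pulldown, a change of -2.71 (SE 0.29, adjusted p = 1.9e-06). Neither gene's TNIP2 Pulldown libraries overlapped any other library. OTUD6B-AS1 was at 641, 610 and 874 in TNIP2 Input, against 277, 409 and 250 for TNIP2 Pulldown, a change of -1.20 (SE 0.19, adjusted p = 9.2e-05). ZNF213-AS1, named after a zinc finger gene, went from 95, 72 and 54 to 20, 18 and 12 (change -2.07, SE 0.26, adjusted p = 7.9e-06).

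HNRNPU-AS1 varied more within groups. Its values were 1468, 2386 and 776 in TNIP2 Input, against 382, 709 and 341 for TNIP2 Pulldown, where the lowest Input library lay just above the highest Pulldown library. The change was -1.62 (SE 0.37, adjusted p = 0.0015). HNRNPU, a nuclear RNA-binding protein gene into which RefSeq merges this row, was at 7587, 8321 and 5240 against 5147, 5195 and 4808, a change of -0.45 (SE 0.18, adjusted p = 0.039). With the library number as a block among TNIP2 libraries, the HNRNPU call was lost. It was also lost under 10 other alternatives, 8 of which left out 1 library (Control Input 2 or 3, Control Pulldown 1, TNIP2 Input 1 or 2, or any TNIP2 Pulldown library), with adjusted p from 1.8e-04 to 0.17 over all alternatives.

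Among the antisense genes that rose, SERTAD4-AS1 had normalized counts of 31, 24 and 31 for Control Input, 26, 32 and 35 for Control Pulldown, 36, 22 and 29 for TNIP2 Input, and 294, 473 and 266 for TNIP2 Pulldown. All 3 TNIP2 Pulldown libraries were several times above the other 9. The change was 3.50 against TNIP2 Input (SE 0.27, adjusted p = 1e-07) and 3.40 against Control Pulldown (SE 0.27, adjusted p = 1.2e-07). SERTAD4 overlaps it at the 5′ end and rose less, from 127, 159 and 110 to 447, 433 and 165, by 1.28 (SE 0.31, adjusted p = 0.0025). In FPKM the antisense gene moved from 3.19 ± 0.722 to 37.9 ± 12.3, past its partner, which moved from 5.77 ± 1.09 to 15.2 ± 6.94 (SD, n = 3).

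FGD5-AS1, the second most abundant member by mean normalized count, was at 2833, 2740 and 2589 in TNIP2 Input, against 9422, 14904 and 4562 for TNIP2 Pulldown. The Pulldown libraries were all higher but differed widely among themselves. The change was 1.67 (SE 0.29, adjusted p = 1.8e-04). WAC-AS1, divergent from WAC, went from 2431, 2463 and 2692 to 5789, 4231 and 4203, a change of 0.89 (SE 0.15, adjusted p = 1.2e-04), and WAC from 1826, 1823 and 2114 to 7438, 8671 and 6124, a change of 1.94 (SE 0.15, adjusted p = 1.2e-07). Under quantile normalization the WAC-AS1 call was lost (adjusted p = 0.09, the highest of its alternatives).

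IDH1-AS1 is divergent from IDH1, the cytosolic isocitrate dehydrogenase. It was at 19, 16 and 13 in TNIP2 Input, against 134, 127 and 45 for TNIP2 Pulldown (change 2.46, SE 0.44, adjusted p = 2.2e-04), and IDH1 rose by 1.94 (SE 0.19, adjusted p = 8.6e-07). HHIP-AS1 went from 6, 13 and 8 to 54, 75 and 33 (change 2.44, SE 0.44, adjusted p = 2.4e-04), while HHIP, a hedgehog-binding protein gene, was at 21, 23 and 14 against 29, 25 and 23 and did not pass (adjusted p = 0.24). Both antisense genes were low in all other libraries, at 22 or less. PKN2-AS1 (26, 22 and 12 to 81, 88 and 65) and USP27X-AS1 (31, 37 and 39 to 147, 177 and 88) rose by 1.97 and 1.86 (adjusted p = 9.8e-05 and 3.1e-05), without overlap between the groups.

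SCOC-AS1 was at 14, 23 and 10 in TNIP2 Input, 0, 10 and 10 in Control Pulldown and 49, 72 and 37 in TNIP2 Pulldown. The value of 0 was in the shallowest library. The change was 1.71 against TNIP2 Input (SE 0.70, adjusted p = 0.048), a call lost under 11 alternatives, among them leaving out any TNIP2 Pulldown library, any Control Input library, or TNIP2 Input 1 or 3, with adjusted p from 1.1e-04 to 0.15.

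**Figure D3:**
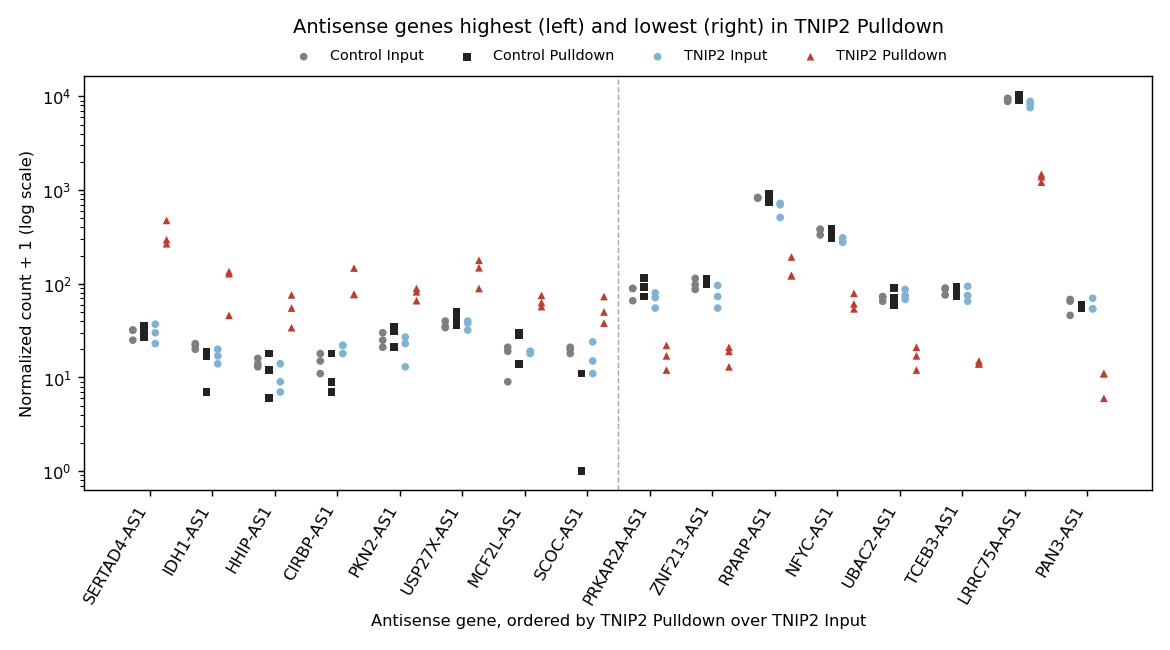
Normalized count + 1 on a log scale (vertical axis) in each of 12 libraries for the 8 antisense genes with the highest (left of the dashed line) and the 8 with the lowest log2 fold change in TNIP2 Pulldown over TNIP2 Input, among called genes without overlap whose higher group averaged 50 or more. Points are single libraries, marked by group. SERTAD4-AS1 runs from 22 to 36 in the other groups and from 266 to 473 in TNIP2 Pulldown, and LRRC75A-AS1 from 7568 to 10253 and from 1212 to 1471 (normalized counts).

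The changes of antisense genes and of their partners were nearly uncorrelated. Across the 272 pairs in TNIP2 Pulldown over TNIP2 Input, the fold change of the antisense gene and that of the sense gene had a Pearson's r of 0.06 and a Spearman's rho of 0.06, as a description across genes that share libraries. In 42 pairs both genes were called in the same direction (24 higher, 18 lower) and in 38 in opposite directions. In 28 of the 38 the antisense gene was lower and the sense gene higher, and in 10 the reverse. The antisense gene alone was called in 43 pairs, the sense gene alone in 81, and neither in 68. The change of the antisense gene was below that of its partner in 166 pairs. Without TNIP2 Pulldown 2, 27 pairs were called in the same direction.

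Against Control Pulldown, 46 pairs were called in the same direction and 44 in opposite directions, 36 of the latter with the antisense gene lower. In that comparison 34.0% of called antisense genes were higher, against 66.5% of called sense partners and 51.6% of all called genes. Leaving out TNIP2 Pulldown 2 left 30 pairs in the same direction. By arrangement, in TNIP2 Pulldown over TNIP2 Input, 15 of 76 divergent antisense genes were higher and 21 lower, 13 and 12 of 63 overlapping at the 5′ ends, and 4 and 13 of 36 overlapping at the 3′ ends, with median changes of -0.16, -0.27 and -0.30. Of all genes tested, 29.8% were higher and 28.3% lower, and differences between arrangements were not tested. The rho of antisense and sense change was -0.04 over 74 divergent pairs, 0.04 over 57 pairs overlapping at the 5′ ends and 0.22 over 31 pairs overlapping at the 3′ ends. In both overlapping arrangements reads of both genes can fall on the same bases, and the part of shared reads was not tested. Opposite calls numbered 15, 5 and 4 in these 3 arrangements, and calls in the same direction 12, 7 and 6. Exonic length, recovered for 287 antisense genes (median 2148 bases), had a rho of 0.07 with the fold change.

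**Figure D4:**
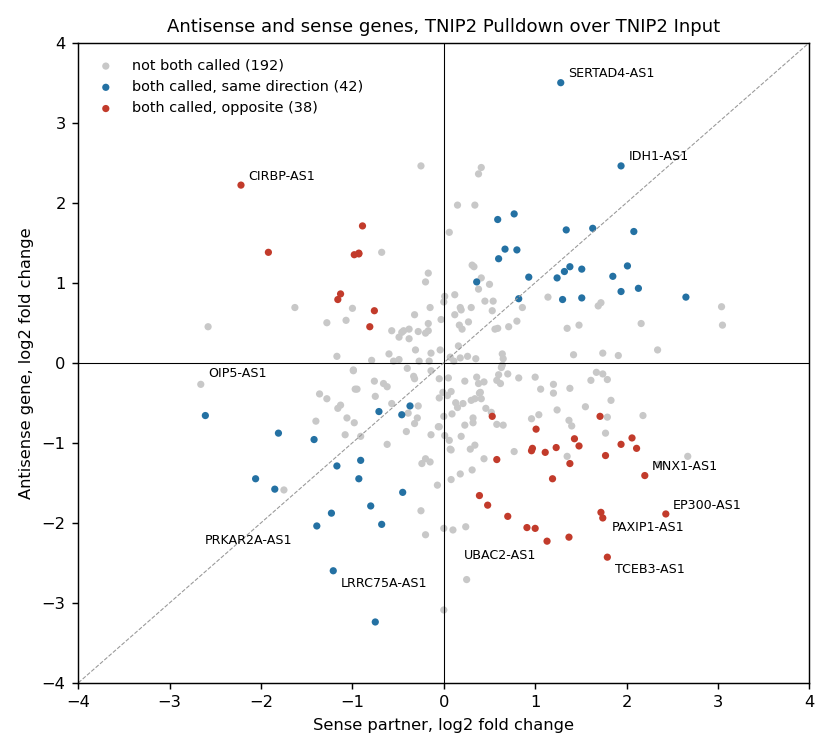
Log2 fold change in TNIP2 Pulldown over TNIP2 Input of the antisense gene (vertical axis) against that of its sense partner (horizontal axis), 1 point per pair, with the dashed line marking equal change. Of 272 pairs, 42 were called in the same direction (blue), 38 in opposite directions (red) and 192 not in both genes (grey).

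In several pairs with large changes the antisense gene fell while its partner rose. TCEB3-AS1 overlaps the 3′ end of TCEB3, now ELOA, a subunit of a transcription elongation complex. The antisense gene was at 64, 74 and 93 in TNIP2 Input, against 14, 13 and 13 for TNIP2 Pulldown (change -2.43, SE 0.22, adjusted p = 4.2e-07). TCEB3 went the other way, from 932, 925 and 1272 to 3268, 3721 and 3742 (change 1.79, SE 0.18, adjusted p = 1.1e-06). Neither gene's groups overlapped, and the log2 ratio of antisense to sense count went from -3.74 ± 0.11 to -7.96 ± 0.168 (SD, n = 3), given with no test because the pair was chosen for its opposite calls.

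EP300-AS1 does not overlap EP300, a histone acetyltransferase gene, in RefSeq. It went from 63, 63 and 75 to 19, 18 and 15 (change -1.89, SE 0.22, adjusted p = 5e-06), and EP300 from 384, 455 and 309 to 1916, 2299 and 1922 (change 2.43, SE 0.17, adjusted p = 5.7e-08). PAXIP1-AS1 went from 478, 512 and 356 to 129, 113 and 104 (change -1.94, SE 0.19, adjusted p = 7.9e-07). PAXIP1, which encodes a partner of histone methyltransferases, went from 628, 722 and 649 to 2034, 2748 and 1952 (change 1.74, SE 0.16, adjusted p = 5.9e-07). In both pairs all 3 TNIP2 Pulldown libraries lay outside the range of TNIP2 Input, on opposite sides for the 2 genes.

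NFYC encodes a subunit of the CCAAT-binding factor NF-Y. NFYC-AS1 was at 276, 308 and 280 and then 78, 60 and 53 (change -2.18, SE 0.18, adjusted p = 1.6e-07), and NFYC at 462, 417 and 563 and then 1123, 1189 and 1403 (change 1.37, SE 0.19, adjusted p = 3e-05). MNX1 is a homeobox gene of motor neurons and pancreas. MNX1-AS1 went from 106, 92 and 130 to 48, 42 and 32 (change -1.41, SE 0.22, adjusted p = 7e-05), and MNX1 from 257, 233 and 225 to 959, 1411 and 984 (change 2.20, SE 0.17, adjusted p = 1.1e-07).

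UBAC2 encodes a membrane protein of the endoplasmic reticulum. UBAC2-AS1 went from 74, 67 and 86 to 20, 16 and 11 (change -2.23, SE 0.26, adjusted p = 3.9e-06), and UBAC2 from 818, 666 and 583 to 2133, 1659 and 947 (change 1.13, SE 0.23, adjusted p = 7e-04). The genes of the pair, whose stretch is printed above, do not overlap in RefSeq, with 96 bases between their starts.

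The reverse direction was seen for CIRBP, a cold-inducible RNA-binding protein gene. CIRBP-AS1 was at 14, 17 and 10 for Control Input, 17, 6 and 8 for Control Pulldown, 21, 17 and 21 for TNIP2 Input, and 76, 76 and 146 for TNIP2 Pulldown. The antisense gene was higher in all 3 TNIP2 Pulldown libraries than in any other (change against TNIP2 Input 2.21, SE 0.38, adjusted p = 1.8e-04). CIRBP was at 2658, 2875 and 2379 in TNIP2 Input, against 600, 539 and 559 for TNIP2 Pulldown (change -2.21, SE 0.15, adjusted p = 4.9e-08). The log2 ratio of antisense to sense count went from -7.0 ± 0.29 to -2.57 ± 0.558 (SD, n = 3).

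TMEM161B-AS1 and KIF9-AS1 moved the same way as CIRBP-AS1 but less. The first went from 96, 70 and 82 to 154, 152 and 123 (change 0.79, SE 0.20, adjusted p = 0.0034) while TMEM161B, divergent from it, went from 579, 505 and 612 to 260, 285 and 217 (change -1.16, SE 0.15, adjusted p = 1.3e-05). KIF9-AS1, which overlaps the 3′ end of the kinesin gene KIF9, went from 57, 56 and 85 to 149, 187 and 167 (change 1.35, SE 0.22, adjusted p = 1e-04). KIF9 was at 96, 77 and 171 and then 38, 54 and 78, so that the groups overlapped, with a change of -0.98 (adjusted p = 0.012). The KIF9 call was lost without TNIP2 Input 3 and without TNIP2 Pulldown 1, with adjusted p from 0.0022 to 0.068.

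In other pairs both genes moved together. PRKAR2A-AS1, 62 bases from the start of PRKAR2A (a regulatory subunit of protein kinase A), went from 79, 70 and 54 to 11, 21 and 16 (change -2.04, SE 0.28, adjusted p = 1.9e-05), and PRKAR2A from 955, 1058 and 744 to 423, 313 and 316 (change -1.39, SE 0.17, adjusted p = 8.3e-06). PDCD4-AS1 fell by 1.58 and PDCD4, an inhibitor of translation initiation, by 1.85 (adjusted p = 1.6e-04 and 4.3e-04). MAPKAPK5-AS1 went from 528, 505 and 599 to 1242, 1277 and 945 (change 1.07, SE 0.16, adjusted p = 3.4e-05), and the kinase gene MAPKAPK5 rose by 1.85 (adjusted p = 4.5e-07). USP27X, a deubiquitinase gene, rose by 0.77 (adjusted p = 0.0076), a call lost when libraries were centred on ribosomal protein genes (adjusted p = 0.33, the highest of its alternatives).

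In the OIP5 pair the partner fell and the antisense gene did not pass the test. OIP5-AS1 was at 547, 620 and 676 for Control Input, 550, 647 and 705 for Control Pulldown, 596, 703 and 519 for TNIP2 Input, and 543, 587 and 392 for TNIP2 Pulldown. These groups overlapped (change -0.27 against TNIP2 Input, SE 0.18, adjusted p = 0.23), while each TNIP2 Pulldown library lay below the TNIP2 Input library of its number. With the number as a block among TNIP2 libraries the adjusted p was 0.19. OIP5 went from 289, 237 and 361 to 46, 41 and 49 (change -2.66, SE 0.19, adjusted p = 5.4e-08). THAP9-AS1 (0.03, SE 0.21, adjusted p = 0.9), MAGI2-AS3 (0.09, SE 0.32, adjusted p = 0.83) and TP73-AS1 (-0.24, SE 0.17, adjusted p = 0.23), all among the most abundant, did not pass either.

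MCM3AP-AS1 (128, 171 and 63 to 53, 67 and 23) changed by -1.34 (SE 0.39, adjusted p = 0.0086), with an overlap between the groups. Its lowest values in both groups were in the libraries numbered 3. RAB11B-AS1 fell from 62, 50 and 54 to 31, 32 and 27 (change -0.86, SE 0.24, adjusted p = 0.0065). DLX6-AS1, an RNA of forebrain interneurons, went from 41, 54 and 28 to 11, 14 and 4 (change -2.07, SE 0.40, adjusted p = 4e-04), and DLX6, a homeobox gene, from 41, 39 and 24 to 62, 88 and 59 (change 1.00, SE 0.31, adjusted p = 0.013). The DLX6 call was lost under ribosomal centring, without TNIP2 Input 3 and without TNIP2 Pulldown 2 (adjusted p from 0.0029 to 0.16 over all alternatives). HOXB-AS1 (0.14, adjusted p = 0.81) and HOXB-AS3 (-0.40, adjusted p = 0.21) did not pass. Against Control Pulldown, HOXB-AS3 was lower, at 215, 179 and 187 there and 122, 98 and 107 in TNIP2 Pulldown (change -0.82, SE 0.27, adjusted p = 0.015), a call lost without Control Pulldown 1, without TNIP2 Pulldown 2 and under quantile normalization (adjusted p from 0.0017 to 0.054).

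ZEB1-AS1 went from 120, 116 and 69 to 78, 72 and 47 (change -0.61, SE 0.25, adjusted p = 0.045), with an overlap, and its partner ZEB1, a regulator of epithelial to mesenchymal transition, from 479, 434 and 553 to 297, 296 and 295 (change -0.71, SE 0.14, adjusted p = 6e-04). The ZEB1-AS1 call was lost under 13 alternatives, 10 of them leaving out 1 library (any Control library, TNIP2 Input 1 or 2, TNIP2 Pulldown 2 or 3), with adjusted p from 6.9e-04 to 0.17. HOXA-AS3 was also called by a small margin (change -0.71, adjusted p = 0.047) and lost under 14 alternatives, among them leaving out any Input library, Control Pulldown 1, or TNIP2 Pulldown 1 or 2 (adjusted p from 0.0095 to 0.14).

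Other symbol classes of long non-coding genes are given for comparison only. Of 137 LINC genes with a number, 18 were higher and 28 lower in TNIP2 Pulldown over TNIP2 Input (33.6%, median -0.30). Of all genes tested, 58.1% were called in that comparison. Of 7 genes ending in -IT and a number, for intronic transcripts, 0 were higher and 3 lower, and of 8 ending in -AS without a number, 1 was higher and 1 lower. The 50 antisense genes since renamed -DT had 11 higher and 13 lower (median -0.17). The difference between these classes and the antisense genes was not tested.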

How the data were processed

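RNA-seq of 12 libraries (4 groups of 3) was used. Normalized counts, whole numbers treated here as a score and not as raw counts, and FPKM were deposited by the authors as 2 tables keyed by symbol, with 0 columns of other samples. Per the submitters' processing notes, the authors used TopHat2 2.0.14, DESeq2 1.6.3 and hg19. What counter, strand setting and gene models were used is not given in the sources used here. Reads were recovered from the steps of low FPKM values, with 100% of the values checked whole within 0.1 reads, and 1 read was worth 0.511 to 2.87 normalized counts. Exonic lengths were recovered from the ratio of normalized counts to FPKM. Of the abundant short genes used to scale them, 96.9% had lengths whole within 0.1 bases. Steps and scale were chosen to make these values whole, so the shares are no independent check.

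Genes with 10 or more in at least 3 libraries were fitted in limma 3.58.1 (R 4.3.3; lmFit, eBayes with trend) on log2(normalized count + 1), with a mean per group, 8 residual degrees of freedom, two-sided tests, and Benjamini-Hochberg adjustment over all genes tested. Pairs were formed by symbol, and arrangements and sequences come from RefSeq GRCh38.p14, a later build than that of the files. Named genes are the 10 most abundant members, the 8 highest and 8 lowest of each of the 2 TNIP2 Pulldown comparisons among called members without overlap between groups and with a higher group averaging 50 or more, 8 pairs with opposite calls, 6 with the same, and a list of well-studied antisense RNAs; TMEM161B-AS1 was added after its values were seen. The members and lists were chosen with earlier results of these data known. The methods were tested on simulated data. Alternatives were another pseudocount (5), a stricter filter (mean of 50) and none, quantile normalization, centring on ribosomal protein genes, FPKM, limma's voom on recovered reads with TMM factors, a replicate block, fits of only the groups compared, and each library left out in turn. Same-numbered TNIP2 Input and TNIP2 Pulldown libraries deviated together (correlations of 0.369, 0.458 and 0.497), as judged from the data, and for no other pair of groups were the correlations of all 3 numbers over 0.1.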

Additional observations from a re-analysis of the deposited data

Results flagged for a closer look

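For the 15 named antisense genes below, the Pulldown-over-Input change differed between the TNIP2 construct and the tag alone (limma, adjusted over all genes tested). They had been chosen for their change in TNIP2 Pulldown over TNIP2 Input. That change is part of the difference, so the test adds no independent support. Other named genes, such as MAPKAPK5-AS1 and WAC-AS1, were called too. The MAPKAPK5-AS1 call was lost under ribosomal centring (limma adjusted p = 0.13). That of WAC-AS1 was lost under ribosomal centring and under quantile normalization (highest limma adjusted p = 0.2). MCF2L-AS1, chosen in the same way as the 15 (change 1.79 in TNIP2 Pulldown over TNIP2 Input), is not among them. In all, 27.2% of the 302 antisense genes were called, against 42.8% of all genes tested. Values are the difference of enrichments on the log2 scale, TNIP2 minus tag alone. It was 3.40 for SERTAD4-AS1 (SE 0.38, adjusted p = 1.2e-05), 3.18 for IDH1-AS1, 2.83 for HHIP-AS1, 2.68 for CIRBP-AS1, 1.79 for PKN2-AS1 and 1.63 for USP27X-AS1. For SCOC-AS1 it was 3.70 (SE 0.99, adjusted p = 0.0077), and that gene was at 0, 10 and 10 in Control Pulldown. Without the library at 0, Control Pulldown 1, the difference was 2.54 (adjusted p = 0.0018). The change in TNIP2 Pulldown over TNIP2 Input was 2.46 for IDH1-AS1, 2.44 for HHIP-AS1, 2.21 for CIRBP-AS1 and 1.71 for SCOC-AS1. Their larger differences thus include a fall from Control Input to Control Pulldown, at low counts. The changes of SERTAD4-AS1, PKN2-AS1 and USP27X-AS1 (3.50, 1.97 and 1.86) were above their differences.

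The difference of enrichments was -2.69 for LRRC75A-AS1 (SE 0.19, adjusted p = 8.7e-07), -2.68 for PAN3-AS1, -2.37 for TCEB3-AS1, -2.28 for UBAC2-AS1, -2.23 for PRKAR2A-AS1, -2.17 for ZNF213-AS1, -2.14 for RPARP-AS1 and -2.12 for NFYC-AS1. In the tag alone, the changes of these 8 genes in Control Pulldown over Control Input lay between -0.06 and 0.19.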

How the results depend on the processing

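The antisense genes had more lower than higher calls under each of 24 settings in TNIP2 Pulldown over TNIP2 Input, 23 against Control Pulldown and 22 for the difference of enrichments, the reported settings included. These settings reuse the same libraries. All genes tested also had more lower calls under quantile normalization, voom and ribosomal centring, with 48.9%, 47.6% and 28.9% of called genes higher in the first comparison. Counts moved by over 1.5 times as follows. With a mean of 50 or more required, 120 antisense genes remained to be tested, with 29 higher and 41 lower in the first comparison, where 65.2% of all genes tested were called (20 pairs in the same and 23 in opposite directions), 27 and 45 in the second (65.3% of all genes, 22 and 21 pairs), and 18 and 30 for the difference of enrichments (50.3% of all genes). Centring on ribosomal protein genes, which moved the median of all genes by -0.46, -0.30 and -0.55, gave 27 higher and 134 lower antisense genes with 67 partners higher in the first, 33 higher in the second, and 15 and 95 antisense genes with 43 and 72 partners in the difference. Leaving out both TNIP2 libraries numbered 3, a choice made after seeing the data, gave 49 antisense genes called above 0 in the difference (29% of all genes tested).

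Leaving out 1 library at a time gave 36 to 70 higher and 66 to 82 lower antisense genes in the first comparison, 37 to 58 and 80 to 100 in the second, and 22 to 50 and 42 to 58 in the difference. Of all genes tested, 26.9 to 31.6% were then higher and 25.2 to 29.7% lower in the first comparison. The shares were 28 to 32.4% and 25.7 to 30.4% in the second, and 19.5 to 26.2% and 17.1 to 23.3% in the difference. Pairs called in the same direction numbered 27 to 49 and 30 to 48, and in opposite directions 26 to 43 and 33 to 46. The replicate block gave 57 higher and 81 lower antisense genes in the first comparison, with 31% of all genes tested higher and 29.3% lower. Within the TNIP2 libraries that the numbers pair (added after seeing the data), the counts were 66 and 94, with 32.4% and 30.1% of all genes. Beside HNRNPU, the block ended the call of HOXA-AS3. Of 204 results for single genes, 162 kept direction and call under every alternative run, 42 lost the call under at least 1, and 1 reversed: TP73 in TNIP2 Pulldown over TNIP2 Input was -0.026 under ribosomal centring (adjusted p = 0.93, range over its alternatives 0.0099 to 0.93), against 0.44 as reported. The cause was not tested. Low depth in Control Pulldown limits genes at a few reads there.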
